A study of Homo sapiens with 16 samples.

Results

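Lipocalin-2, the product of LCN2, is secreted and sequesters iron by holding the small carriers that bacteria use to take it up. LCN2 was followed here together with 7 genes whose products are known to drive its transcription. The 8 genes were chosen by symbol: LCN2 itself, NFKBIZ, the C/EBP factor genes CEBPA, CEBPB and CEBPD, the IL-17 receptor subunit genes IL17RA and IL17RC, and TRAF3IP2, which encodes the receptor's adaptor Act1. All 8 were found among the 19454 genes of the PC9 table, and 7 of them among the 17954 genes of the MDA231 table. No gene of the MDA231 table had the symbol CEBPA, which was therefore not analysed in that line. RNA was sequenced from 16 libraries, with 2 in each of 4 groups per line. PC9 is a lung cancer line and MDA231 a breast cancer line. The groups were parental cells without a hairpin and 3 groups of LeptoM cells, which are a derivative of each line that forms metastases in the leptomeninges, the thin coverings of the brain. Of the LeptoM groups, 1 had the hairpin shCTL as a control, 1 had shLCN2_1 and 1 had shLCN2_2, both against LCN2 and all delivered by lentivirus. The LeptoM shCTL cells therefore differ from the parental cells by the derivation and by the hairpin vector, which cannot be told apart. All cells were grown in dishes without the fluid or the immune cells of the leptomeninges, and the labels name no added cytokine. Whether the 2 libraries of a group stem from separate cultures is not stated in the labels, and p-values therefore cover only how far these libraries differ, which may be technical variation.

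IL-17 is released mainly by lymphocytes and binds a receptor built from the IL17RA and IL17RC chains on epithelial and stromal cells. The receptor recruits Act1, which passes the signal to TRAF proteins, to NF-kB and to the C/EBP factors C/EBPbeta and C/EBPdelta, and it also stabilises target mRNAs. IkappaB-zeta, the product of NFKBIZ, is an inducible nuclear partner of NF-kB without which LCN2 responds poorly, and LCN2 is a classical epithelial target of this pathway with binding sites for NF-kB and C/EBP close to its start.

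The RefSeq promoters (GRCh38.p14) of LCN2, NFKBIZ and CEBPB are shown as examples that hold letters of the kind that these factors bind. Capitals mark matches to an NF-kB pattern (GGG, then 5 bases of any kind, then CC) and to TTGCNNAA, a C/EBP pattern, each searched on both strands in the 250 bases before a start. A pattern for STAT factors, TTCNNNGAA, was searched in the same way and matched in none of the 6 genes (6.57% of all promoters held it). RefSeq windows were found for 6 of the 8 genes, with CEBPD and IL17RA the exceptions. All 6 held an NF-kB match, so these letters do not set the genes shown apart. Of those not shown, IL17RC held 3, CEBPA 1, and TRAF3IP2 1 in each of 2 windows. The LCN2 stretch is chr9:128149265-128149440, the NFKBIZ stretch chr3:101827740-101827989 and the CEBPB stretch chr20:50190333-50190582, all on the plus strand and all before the RefSeq start used. The LCN2 stretch lies inside the longer span that GENCODE gives the gene (from 128149071), between annotated exons, which were left out.
LCN2: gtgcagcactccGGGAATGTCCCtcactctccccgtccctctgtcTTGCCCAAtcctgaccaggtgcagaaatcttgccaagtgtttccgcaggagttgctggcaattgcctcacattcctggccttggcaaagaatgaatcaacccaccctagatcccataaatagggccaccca
NFKBIZ: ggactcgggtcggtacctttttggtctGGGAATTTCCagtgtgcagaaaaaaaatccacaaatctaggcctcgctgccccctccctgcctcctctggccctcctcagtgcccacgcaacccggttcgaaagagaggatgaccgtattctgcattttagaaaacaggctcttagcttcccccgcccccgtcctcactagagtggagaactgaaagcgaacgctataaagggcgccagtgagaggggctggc
CEBPB: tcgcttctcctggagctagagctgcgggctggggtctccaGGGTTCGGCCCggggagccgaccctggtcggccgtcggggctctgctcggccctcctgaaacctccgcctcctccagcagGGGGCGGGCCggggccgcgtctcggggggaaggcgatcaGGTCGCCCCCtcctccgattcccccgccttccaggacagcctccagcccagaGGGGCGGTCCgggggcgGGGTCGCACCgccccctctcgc
The LCN2 promoter held 2 overlapping NF-kB matches, starting at -176 and -175 from the start and together spanning the first run of capitals, and 1 C/EBP match, TTGCCCAA, at -143. Among 35116 RefSeq promoters, 54.4% held an NF-kB match and 9.05% a C/EBP match, so the NF-kB letters are common. The NFKBIZ window shown held 1 NF-kB match, GGGAATTTCC, at -223, and no C/EBP match. A window at another RefSeq start of NFKBIZ, of 73.6% GC, held 4 NF-kB matches and no C/EBP match. The CEBPB window shown held 6 NF-kB matches at 75.6% GC, and the one at its other start 5 at 77.6%, against a median GC content of 58.0% over all windows. A match is a description of the letters and not a site shown to be bound.

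The PC9 libraries held 36796098 to 51759154 gene reads. Those of MDA231 LeptoM cells held 41751486 to 49050069, and the 2 of MDA231 parental cells only 11592790 and 11613984. Depth and group can therefore not be told apart in MDA231. Levels are normalized counts, that is reads per gene over the library's size factor, and a floor of 3 reads corresponded to 2.41 to 3.52 in PC9, 1.93 to 2.28 in MDA231 LeptoM and 8.51 to 8.94 in MDA231 parental libraries. Floors cover counting error only. All 7 epithelial markers (such as KRT8 and EPCAM) were above the floor in PC9. Their summed level was 686126 to 759639 in parental cells, 849630.0 to 891936 with shCTL, 515851 to 534123 with shLCN2_1 and 918562 to 924806 with shLCN2_2, and what part this plays in the PC9 results was not tested. All 6 mesenchymal markers (such as VIM) were above the floor in MDA231, at 282359 to 333022 in sum. Of cells that could bring LCN2 or IL-17, the granulocyte and macrophage genes MPO, ELANE, TYROBP, AIF1 and CD163 and the T cell genes CD3E, CD3D, CD2 and KLRB1 were above the floor in no library of either line. The other T cell list genes, led by IL7R in parental cells, summed to 61.0 to 215 in PC9 and 438 to 2313 in MDA231. The summed level of the 7 of 12 macrophage and granulocyte markers detected in PC9 was 854 to 951 in parental cells, 826 to 853 with shCTL, 345 to 509.9 with shLCN2_1 and 1582 to 1589.9 with shLCN2_2, led by CSF1R, and in MDA231 that of 6 was 68.5 to 294.6. Of 6 leptomeningeal and choroid plexus markers, TTR and DCN were not above the floor in PC9. The other 4, led by FOLR1, summed to 38.7 to 48.1 in parental cells, 114 to 156 with shCTL, 179.5 to 209 with shLCN2_1 and 378 to 409 with shLCN2_2, and the 3 of them tested rose from parental to shCTL cells. In MDA231 the epithelial markers, led by EGFR, summed to 26473 to 33254 in parental cells, 45582 to 48747 with shCTL, 50708 to 56331 with shLCN2_1 and 55099.8 to 60183 with shLCN2_2. The part these markers play in the results was not tested. Fewer cells of a type and less RNA per cell cannot be told apart in such samples.

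In PC9, LCN2 and 2 of its inputs, IL17RC and CEBPD, were higher in LeptoM shCTL cells than in parental cells, and IL17RA was lower. These 4 of 8 genes passed the test (limma, Benjamini-Hochberg adjusted p under 0.05), where 45.6% of all genes tested did. With shLCN2_1, LCN2, CEBPB, IL17RC and IL17RA were below shCTL, so 4 of 8 were called lower against 25.3% of all genes, and 44.2% of all genes were called in either direction. With shLCN2_2 only LCN2 passed, 1 of 8 against 19.5% of all genes. Between the hairpins, LCN2, CEBPB, IL17RC, IL17RA and TRAF3IP2 were lower with shLCN2_1, 5 of 8 against 54.5% of all genes in either direction and 28.9% lower. In PC9 the shares called in either direction were near the background. In MDA231, LCN2 was the only one of 7 called in LeptoM shCTL against parental cells, where 48.7% of all genes were called. No gene of the 7 passed with shLCN2_1 (0.841% of all genes did), with shLCN2_2 (0.521%) or between the hairpins (2.69%). At an unadjusted p under 0.05 the counts were 1, 1 and 0 of 7, beside 2010, 2013 and 2345 of all 14387 genes. In each of these 3, edgeR and DESeq2 on the reads called 0 of the 7. Over all genes edgeR called 297, 188 and 687, and DESeq2 488, 350 and 819. The comparisons with shCTL share its libraries within a line. The plot of fold changes sets the 8 genes side by side.

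**Figure D1:**
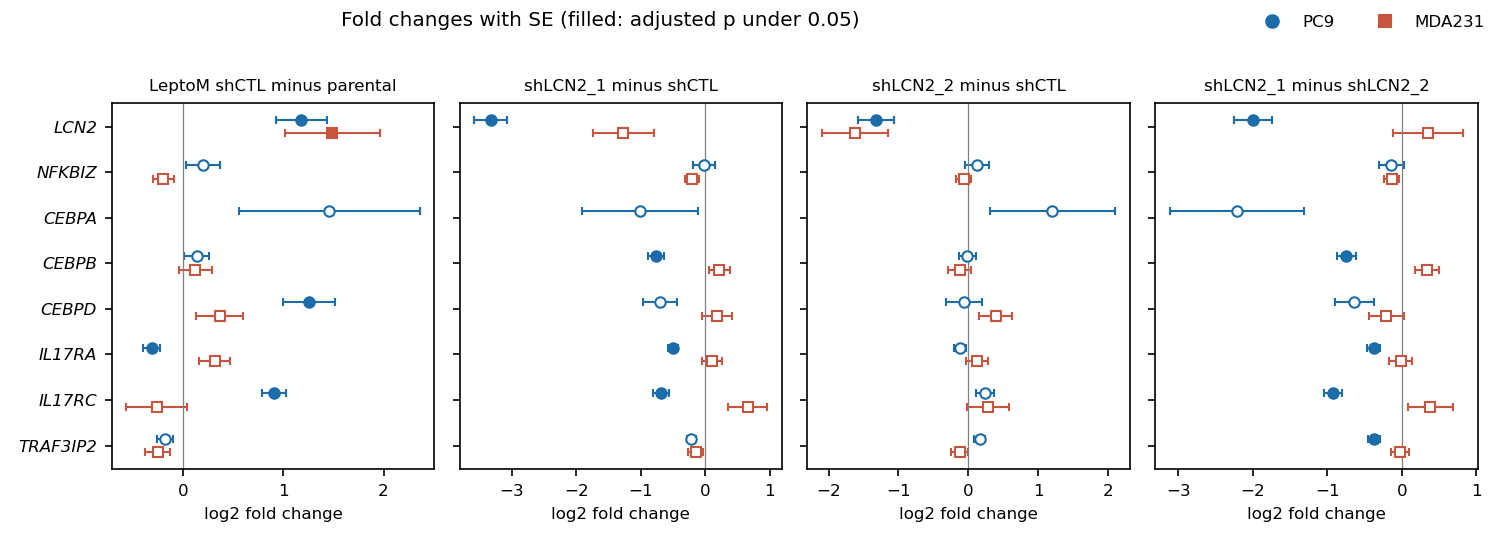
Log2 fold changes (x axis) of the 8 genes (y axis) in 4 comparisons, PC9 as circles and MDA231 as squares, with bars for the SE from limma and filled symbols for an adjusted p under 0.05. LCN2 in PC9 lies at 1.18 above parental cells and at -3.33 and -1.32 with the hairpins, and the widest bars are those of CEBPA, whose SE is 0.90.

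LCN2 (ENSG00000148346.7, chromosome 9, 128149071 to 128153455, plus strand, GRCh38 as are all gene positions here) was by far the most abundant of the 8 in PC9. Its normalized counts were 21140.4 and 23247 in the parental libraries, 51004 and 49615 with shCTL, 3575 and 7046 with shLCN2_1, and 21415 and 18861 with shLCN2_2. The shCTL libraries lay above all others and the shLCN2_1 libraries below all others, while shLCN2_2 overlapped the parental level. LCN2 rose by 1.18 on the log2 scale from parental to shCTL cells (SE 0.25, adjusted p = 0.00641). It fell with shLCN2_1 (-3.33, SE 0.25, adjusted p = 0.000167) and with shLCN2_2 (-1.32, SE 0.25, adjusted p = 0.0111). The shLCN2_2 call was lost without either shCTL or either shLCN2_2 library, where the adjusted p was 0.0705 to 0.0907.
Per kilobase of exon, the LCN2 level with shCTL was 31483, against 1808 for CEBPB, 199 for TRAF3IP2, 197 for IL17RC, 179 for NFKBIZ, 83.1 for IL17RA, 34.4 for CEBPD and 2.77 for CEBPA. With shLCN2_1 it was still 3323, against 1075 for CEBPB, so LCN2 stayed the most abundant of the 8 in each PC9 group.

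In MDA231, whose table was normalized separately, LCN2 was near the limit of detection. Its 2 libraries held 8.51 and 2.98 in parental cells, 19.3 and 13.7 with shCTL, 6.53 and 5.79 with shLCN2_1, and 4.31 and 4.93 with shLCN2_2. These rest on 4, 45, 19 and 13 reads over the 2 libraries of a group, and both parental values lie at or under the floor of their libraries. The shCTL libraries lay above all others, and the parental libraries spanned those of both LCN2 hairpins. The shCTL libraries exceeded the parental ones by 1.49 (SE 0.47, adjusted p = 0.0364), in a fit to which LCN2 was added because its mean lay under the minimum of 10. That call was lost without any 1 of 7 of the 8 libraries (adjusted p = 0.0601 to 0.189), in edgeR (0.0632), in DESeq2 (0.258), with reads thinned to equal depth (0.0787) and with the GC trend removed (1.02, adjusted p = 0.0759). The differences with the hairpins were -1.27 (SE 0.47, adjusted p = 0.299) for shLCN2_1 and -1.62 (SE 0.47, adjusted p = 0.226) for shLCN2_2. For shLCN2_2 the adjusted p was 0.0393 and 0.0391 without parental replicate 1 or 2, and 0.0446 with the GC trend removed.

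**Figure D2:**
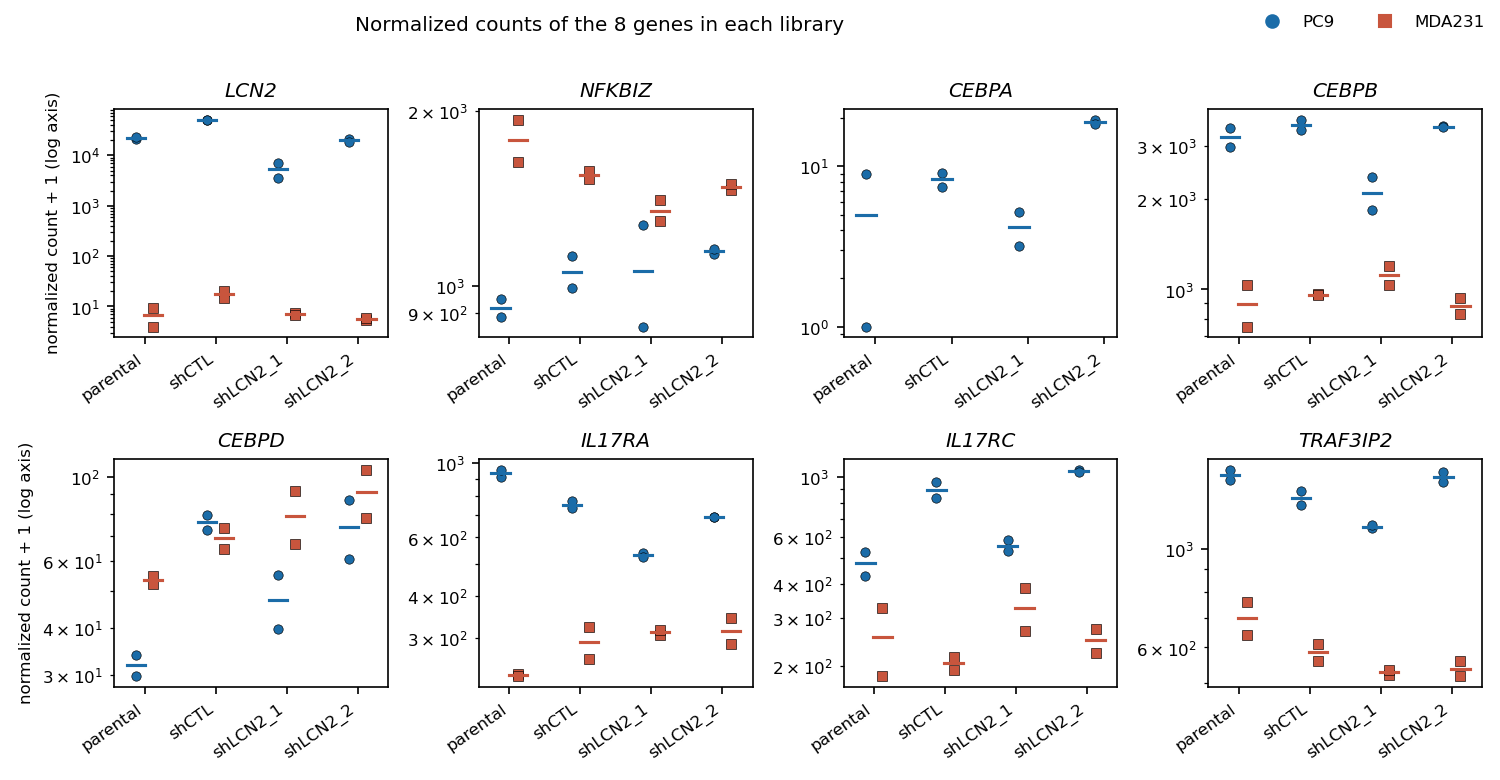
Normalized counts plus 1 (y axes, log scale, a separate range per gene) in each library of the 4 groups (x axes), PC9 as circles and MDA231 as squares, with a line at the mean of the 2 libraries. LCN2 spans 3575 to 51004 in PC9 and 2.98 to 19.3 in MDA231, and NFKBIZ is the only one of the 8 whose MDA231 libraries all lie above those of PC9, in tables that were normalized separately.

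NFKBIZ (ENSG00000144802.7, chromosome 3, 101827991 to 101861022, plus strand) varied little. In PC9 its counts were 949.6 and 884 in parental cells, 1124 and 991 with shCTL, 851 and 1272 with shLCN2_1, and 1135 and 1157 with shLCN2_2. The parental libraries lay below those of shCTL, and the shLCN2_1 libraries spread across the range of all the others. Its difference was 0.20 from parental to shCTL cells (SE 0.17, adjusted p = 0.356). With the LCN2 hairpins it was -0.021 for shLCN2_1 (95% interval -0.41 to 0.37, adjusted p = 0.932) and 0.12 for shLCN2_2 (-0.27 to 0.51, adjusted p = 0.661). Without shLCN2_1 replicate 2, the higher of that group's libraries, NFKBIZ was called lower with shLCN2_1 (-0.31, adjusted p = 0.0268), and without replicate 1 it was called higher (0.27, adjusted p = 0.0472). In MDA231 the counts fell in 1 order without overlap, from 1631 and 1931 in parental cells to 1529.8 and 1573 with shCTL, 1464 and 1496 with shLCN2_2, and 1402 and 1291 with shLCN2_1. None of these differences passed the test, the largest from shCTL being -0.21 with shLCN2_1 (SE 0.11, adjusted p = 0.445). Against parental cells it was -0.19 (SE 0.11, adjusted p = 0.164), and it was called at -0.20 once the GC trend was removed (adjusted p = 0.0162), and at -0.32 without parental replicate 1 (adjusted p = 0.0201).

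CEBPB (ENSG00000172216.4, chromosome 20, 50190734 to 50192689, plus strand), the gene of C/EBPbeta, was the second most abundant of the 8 in PC9. Its counts were 2986 and 3454 in parental cells, 3395 and 3677 with shCTL, 1838 and 2367 with shLCN2_1, and 3506 and 3473 with shLCN2_2. The shLCN2_1 libraries lay below all others, and the other 3 groups lay close together. CEBPB fell with shLCN2_1 by 0.76 on the log2 scale (SE 0.12, adjusted p = 0.00157), while the difference with shLCN2_2 was -0.018 (95% interval -0.30 to 0.26, adjusted p = 0.936). The fall reversed to 0.58 (SE 0.16, adjusted p = 0.0352) when the trend of fold change with GC content was removed from each library. CEBPB is 66.2% GC, above 97.8% of the PC9 genes tested, and how well the fitted trend holds at that end was not tested. In MDA231 it was 1032 and 751 in parental cells, 962 and 954 with shCTL, 1037 and 1196 with shLCN2_1, and 938 and 825 with shLCN2_2. The shLCN2_1 libraries were the highest there, by 0.22 over shCTL (SE 0.16, adjusted p = 0.585), and the parental libraries spanned both other groups. CEBPB was called lower than in parental cells only with the GC trend removed (-0.69, SE 0.22, adjusted p = 0.0282).

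CEBPD (ENSG00000221869.4, chromosome 8), the gene of C/EBPdelta, was low in both lines and is the most GC-rich of the 8 at 70.0%. CEBPD lies above 99.7% of the PC9 genes tested in GC content, and how well the fitted trend holds there was not tested. In PC9 its counts were 28.8 and 32.9 in parental cells, 71.6 and 78.3 with shCTL, 38.8 and 54.0 with shLCN2_1, and 86.0 and 59.8 with shLCN2_2. The parental libraries lay below all others and the shLCN2_1 libraries between them and the other LeptoM groups. It rose by 1.26 from parental to shCTL cells (SE 0.26, adjusted p = 0.00523), a call that was lost at 0.56 (SE 0.31, adjusted p = 0.161) with the GC trend removed. With shLCN2_1 the difference was -0.70 (SE 0.26, adjusted p = 0.0588), and with the trend removed it was 1.01 (SE 0.31, adjusted p = 0.0466). Without shLCN2_1 replicate 2 it was -0.93 (adjusted p = 0.0212). In MDA231 the counts were 51.1 and 53.6 in parental cells, 63.7 and 72.1 with shCTL, 65.3 and 90.6 with shLCN2_1, and 103 and 76.8 with shLCN2_2. The parental libraries were again the lowest, by 0.37 against shCTL (SE 0.24, adjusted p = 0.233), and the LeptoM groups overlapped apart from shCTL and shLCN2_2.

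CEBPA (ENSG00000245848.2, chromosome 19, 33299934 to 33302564, minus strand), the gene of C/EBPalpha, was close to undetected in PC9. Its counts were 7.94 and 0 in parental cells, 6.42 and 8.13 with shCTL, 4.20 and 2.20 with shLCN2_1, and 18.5 and 17.3 with shLCN2_2, from 8, 15, 6 and 43 reads per group. The shLCN2_2 libraries lay above all others. No difference passed the test, the smallest adjusted p being 0.0669 for shLCN2_1 minus shLCN2_2 (-2.21, SE 0.90). That difference was called by edgeR on the reads (-2.38, adjusted p = 0.0277), with a pseudocount of 5 (-1.49, adjusted p = 0.019), with only the 2 hairpin groups in the fit and without either parental library. Without parental replicate 1 the library at 0 stands alone for its group, and the rise to shCTL is then called (3.04, adjusted p = 0.00659).

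IL17RC (ENSG00000163702.14, chromosome 3, 9917074 to 9933630, plus strand), the chain that pairs with IL17RA to bind IL-17A and IL-17F, was called higher in PC9 shCTL cells. In PC9 its counts were 429 and 526 in parental cells, 958 and 831 with shCTL, 529 and 583 with shLCN2_1, and 1061 and 1041 with shLCN2_2. The 4 groups did not overlap, with parental lowest, then shLCN2_1, shCTL and shLCN2_2. IL17RC rose by 0.91 from parental to shCTL cells (SE 0.12, adjusted p = 0.0007), and the rise was 0.47 (SE 0.10, adjusted p = 0.0071) with the GC trend removed. It fell with shLCN2_1 (-0.68, SE 0.12, adjusted p = 0.00279), but with the trend removed it was called higher (0.40, SE 0.10, adjusted p = 0.0286). With shLCN2_2 the difference was 0.24 (SE 0.12, adjusted p = 0.219). The gene is 63.5% GC. In MDA231 its counts were 326 and 182 in parental cells, 214 and 193 with shCTL, 267 and 388 with shLCN2_1, and 274 and 223 with shLCN2_2. The parental libraries alone spanned the shCTL group, and the difference between them was -0.26 (SE 0.30, adjusted p = 0.494). With the GC trend removed it was -0.97 (SE 0.11, adjusted p = 0.000153).

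IL17RA (ENSG00000177663.9, chromosome 22, 17084954 to 17115694, plus strand), the receptor chain shared by several IL-17 cytokines, went the other way in PC9 shCTL cells. Its counts were 908 and 957 in parental cells, 733 and 769 with shCTL, 539 and 522 with shLCN2_1, and 689.9 and 688 with shLCN2_2. The 4 groups did not overlap, and parental cells were the highest. IL17RA fell by 0.31 from parental to shCTL cells (SE 0.083, adjusted p = 0.0165), a call that was lost without parental replicate 2 (adjusted p = 0.0634), shCTL replicate 1 (0.127) or shCTL replicate 2 (0.0683). With the GC trend removed, shCTL cells lay further below parental cells (-0.48, SE 0.071, adjusted p = 0.00106). IL17RA fell further with shLCN2_1, by 0.50 (SE 0.083, adjusted p = 0.00184), and this was -0.22 (SE 0.071, adjusted p = 0.0616) with the GC trend removed. With shLCN2_2 the difference from shCTL was -0.12 and not called, and with the GC trend removed it was called at -0.23 (adjusted p = 0.0445). In MDA231 its counts were 233 and 229 in parental cells, 322 and 259 with shCTL, 305 and 317 with shLCN2_1, and 343 and 287 with shLCN2_2. There the parental libraries were the lowest, by 0.32 against shCTL (SE 0.15, adjusted p = 0.124), and the 3 LeptoM groups overlapped. With the GC trend removed the difference was -0.076 (adjusted p = 0.62).

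TRAF3IP2 (ENSG00000056972.14, chromosome 6, 111556454 to 111606278, minus strand), the gene of Act1, differed by at most 0.37 on the log2 scale in each of the 4 comparisons of both lines. In PC9 its counts were 1510.2 and 1433 in parental cells, 1348 and 1255 with shCTL, 1113 and 1132 with shLCN2_1, and 1414 and 1492 with shLCN2_2. The shLCN2_1 libraries lay below all others. The difference between the hairpins was called (-0.37, SE 0.077, adjusted p = 0.00399), and that of shLCN2_1 from shCTL missed the threshold (-0.21, SE 0.077, adjusted p = 0.0532) but not without shLCN2_1 replicate 2 (-0.22, adjusted p = 0.0482). With the GC trend removed, TRAF3IP2 was called lower with shLCN2_1 (-0.36, adjusted p = 0.00736) and in shCTL against parental cells (-0.23, adjusted p = 0.018). In MDA231 the counts were 757 and 641 in parental cells, 611 and 559 with shCTL, 519.5 and 534 with shLCN2_1, and 515 and 557 with shLCN2_2. The parental libraries lay above all others there, and none of the differences passed, though shCTL against parental cells did without parental replicate 2 (-0.37, adjusted p = 0.0377). HTSeq's strand setting was not given, so reads of TRAF3IP2, CEBPB, CEBPA, IL17RA and IL17RC cannot be told apart from those of other annotated genes that overlap them.

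CEBPB, CEBPD and IL17RC are GC-rich, and GC content moved with the fold changes of the whole table. Across 15275 PC9 genes, the fold change with shLCN2_1 fell with GC content (Spearman correlation -0.659), with a median of -1.10 for genes of at least 60% GC and -1.47 for those of at least 65%. CEBPB (-0.76), CEBPD (-0.70) and IL17RC (-0.68) lay above those medians, as the plot against GC content shows. LCN2, at 56.8% GC, lay at -3.33. In the other PC9 comparisons with shCTL the correlation was 0.210 (shCTL minus parental) and 0.224 (shLCN2_2), and in MDA231 it was 0.425 for shCTL minus parental, 0.504 for shLCN2_1 and 0.585 for shLCN2_2. Genes are not independent replicates. Because both shLCN2_1 libraries of PC9 share the trend, an effect of the hairpin on GC-rich genes and a property of library preparation cannot be told apart. LCN2 kept its call in each PC9 comparison with the trend removed (0.97, adjusted p = 0.0194, then -2.89, adjusted p = 0.00096, and -1.46, adjusted p = 0.00768).

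**Figure D3:**
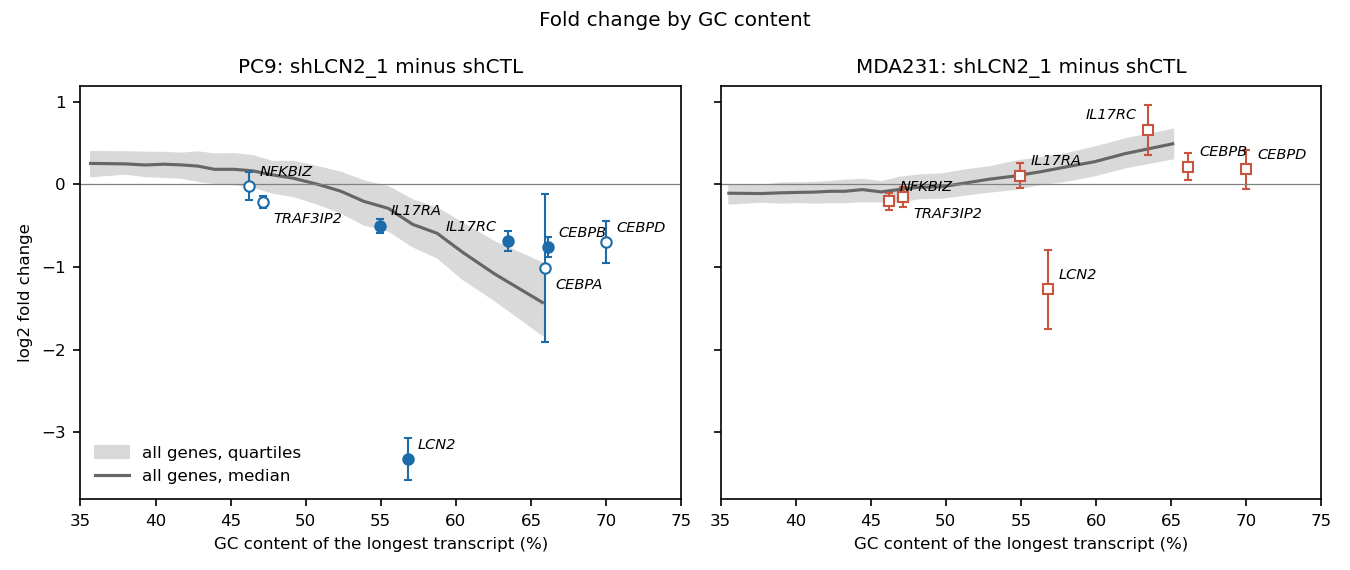
Log2 fold change of shLCN2_1 minus shCTL (y axis) against the GC content of a gene's longest transcript in percent (x axis), for PC9 (left) and MDA231 (right). The line and band are the median and quartiles of all genes tested in bins of GC content, and symbols with SE bars are the genes followed here, filled where called. LCN2 lies at -3.33 in PC9, below the band, while CEBPB, CEBPD and IL17RC lie at or above the band of GC-rich genes.

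Differences between the lines were tested for the 6 genes measured above the minimum in both. From parental to shCTL cells, 3 of 6 differed, against 46.0% of 13392 genes: IL17RC (PC9 minus MDA231 1.17, SE 0.33, adjusted p = 0.0154), IL17RA (-0.63, SE 0.18, adjusted p = 0.0123) and CEBPD (0.89, SE 0.35, adjusted p = 0.0497). With shLCN2_1, 3 of 6 differed, against 37.6% of genes: IL17RC (-1.35, SE 0.33, adjusted p = 0.0139), CEBPB (-0.98, SE 0.21, adjusted p = 0.00695) and IL17RA (-0.61, SE 0.18, adjusted p = 0.0219). With shLCN2_2 none of the 6 differed (5.87% of genes did), and between the hairpins 2 of 6 did, against 32.8% of genes: IL17RC (-1.30, SE 0.33, adjusted p = 0.0176) and CEBPB (-1.08, SE 0.21, adjusted p = 0.00383). With the GC trend removed, the first comparison kept IL17RC (1.44) and IL17RA (-0.40), while with shLCN2_1 IL17RC was 0.18 (adjusted p = 0.462) and CEBPB was 0.90 in the opposite direction (adjusted p = 0.0362).

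The wider pathway was described by 8 gene lists, each set beside the shares of all genes called. In PC9, 23.8% of all genes were called higher and 21.8% lower in shCTL against parental cells, 18.8% and 25.3% with shLCN2_1, and 9.81% and 9.70% with shLCN2_2. In MDA231 these shares were 24.8% and 23.8% in shCTL cells, 0.389% and 0.452% with shLCN2_1, and 0.139% and 0.382% with shLCN2_2. With the GC trend removed, 3033 of 15650 PC9 genes were called higher and 4965 lower in shCTL cells. These counts were 1639 and 2343 with shLCN2_1, and 1513 and 2883 with shLCN2_2. In MDA231 they were 3827 and 5038 of 14387 genes in shCTL cells. With shLCN2_1 they were 583 and 818 there, and with shLCN2_2 374 and 709. Of 6 IL-17 ligands, IL17D alone passed the minimum, in both lines, and it was called in none of the 3 comparisons set out here (0.38, 0.20 and -0.18 in PC9). Of 10 receptor subunits and adaptors tested in PC9, 3 rose and 3 fell in shCTL against parental cells, with a median close to 0, as for all genes. IL17RE, the receptor chain for IL-17C, rose by 1.64 (SE 0.12, adjusted p = 3.11e-05, from 213 to 661) and rose with shLCN2_2 by a further 0.60 (adjusted p = 0.0118, to 1005). TRAF2 rose by 0.82 (SE 0.13, adjusted p = 0.00136), while TRAF5 (-0.44) and TRAF3 (-0.29), also TRAF adaptors, fell beside IL17RA. In MDA231, IL17RE fell (-0.80, SE 0.22, adjusted p = 0.0216, from 72.5 to 41.4), TRAF6 fell (-0.78) and TRAF3 rose (0.95), the 3 called of 10. With shLCN2_1 in PC9, TRAF2, TRAF4, TRAF3, IL17RC and IL17RA fell and TRAF5 rose by 1.44 (SE 0.15, adjusted p = 0.000215, from 102 to 279). TRAF5 was still called with the GC trend removed (1.20), whereas TRAF4 (-0.26) was not. The list's 1 higher and 5 lower became 3 and 3 with the trend removed, its median went from -0.36 to -0.10, and IL17RC was then called higher.

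Of 14 IL-17 signalling kinases in PC9, 3 rose and 7 fell from parental to shCTL cells, against 23.8% and 21.8% of all genes. TAB3 fell by 0.63 (SE 0.070), MAPK8, the JNK1 gene, by 0.56 (SE 0.080) and GSK3B by 0.50 (SE 0.10), and the rises were smaller, at most 0.41 for MAPK3. MAPK3 was at 0.046 with the GC trend removed. With shLCN2_1, 8 rose and 5 fell, against 18.8% and 25.3% of all genes, and 4 and 3 with the GC trend removed. In MDA231, 3 of 14 rose and 5 fell from parental to shCTL cells, against 3572 and 3429 of all 14387 genes. The p38 gene MAPK14 was at -0.87 (SE 0.098), the TAK1 gene MAP3K7 at -0.72 (SE 0.10), MAPK8 at -0.71 (SE 0.12) and MAPK3 at 1.03 (SE 0.15). None of the 14 was called with either hairpin in MDA231 or with shLCN2_2 in PC9. Removing the GC trend gave 4 called lower with shLCN2_2 in MDA231 and 2 in PC9, against 709 of 14387 and 2883 of 15650 genes. Of 9 brakes and mRNA regulators, DCP1B (1.68, SE 0.17) and ZFP36 (0.69, SE 0.12), an mRNA decay factor, rose in PC9 shCTL cells, and TNIP1 (-0.43), SRSF1 (-0.24) and ELAVL1 (-0.24) fell. ZC3H12A (-1.69), ARID5A (-1.26), TNIP1 (-0.85) and ZFP36 (-0.79) fell with shLCN2_1, none of them called with the GC trend removed, and SRSF1 (-0.33) fell with shLCN2_2. In MDA231, TNFAIP3, the gene of the NF-kB inhibitor A20, rose by 1.14 (SE 0.082, adjusted p = 0.000126) and its partner TNIP1 by 1.01 (SE 0.19), and USP25 fell (-0.54).

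Of 11 NF-kB subunits and IkappaB proteins, which include NFKBIZ, none rose and 2 fell in PC9 shCTL cells: NFKBIE, an NF-kB inhibitor gene (-1.12, SE 0.12, adjusted p = 0.000247, from 606 to 278), and NFKB1 (-0.37, SE 0.083). With the GC trend removed, 7 of the 11 were called lower and none higher, against 4965 and 3033 of 15650 genes. The list's median went from -0.16 to -0.38, and that of all genes was then -0.10. In MDA231, BCL3 (1.23, SE 0.27), NFKB2 (0.76, SE 0.21) and RELA (0.75, SE 0.19) rose and NFKB1 fell (-0.32, SE 0.073). The list's median was 0.38 in MDA231, but -0.22 with the GC trend removed. Then 1 rose and 6 fell, against 3827 and 5038 of 14387 genes. With shLCN2_1 in PC9, 7 of 11 fell, against 25.3% of all genes, and none rose (median -0.63), among them NFKBIE, and with the GC trend removed none of the 11 was called. Of 8 genes of the C/EBP family and its partners tested in PC9, 5 rose and 1 fell from parental to shCTL cells, against 23.8% and 21.8% of all genes. These were CEBPD, the pseudokinase gene TRIB2 (0.79, SE 0.14), DDIT3 (0.75, SE 0.19), ATF4 (0.59, SE 0.097) and CEBPG (0.43), and CEBPZ fell (-0.25). In MDA231, TRIB1 (0.97, SE 0.10) and TRIB2 (0.88, SE 0.087) rose, and CEBPZ (-0.60), CEBPG (-0.37) and ATF4 (-0.33) fell. With the PC9 hairpins, CEBPZ rose (0.49) and CEBPB fell with shLCN2_1, and ATF4 fell with shLCN2_2 (-0.66).

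Among 17 other inputs to LCN2, the epithelial transcription factor genes ELF3 and KLF5 rose most in PC9 shCTL cells. ELF3 went from 1573 and 1619 in parental cells to 7087 and 7249 (2.17, SE 0.33, adjusted p = 0.00118), and KLF5 from 1963 in both to 6097 and 6220.0 (1.65, SE 0.093, adjusted p = 8.89e-06). Neither was called with a hairpin: the ELF3 libraries with shLCN2_1 were 3747 and 9191, on both sides of shCTL. In all, 4 of the 17 rose and 6 fell, against 3720 and 3418 of all 15650 genes. Those that fell included IL1R1, the IL-1 receptor gene (-0.65, SE 0.099), and the TNF receptor gene TNFRSF1B (-0.85, SE 0.22). Both of these rose again with each hairpin. TNFRSF1B was 30.3 and 31.5 with shCTL, 56.2 and 58.7 with shLCN2_1 (0.87, SE 0.22, adjusted p = 0.0121), and 56.3 and 68.3 with shLCN2_2 (0.98, SE 0.22, adjusted p = 0.0177). IL1R1 rose by 0.42 (SE 0.099, adjusted p = 0.00958) and 0.35 (SE 0.099, adjusted p = 0.0431), and the former was 0.20 and no longer called with the GC trend removed. TLR4, a receptor gene chosen after its values were seen, fell in all 3 comparisons (-0.62, -0.51 and -0.55). In MDA231, 5 of 15 rose and 3 fell from parental to shCTL cells, against 3572 and 3429 of all 14387 genes. There TNFRSF1B rose instead by 1.79 (SE 0.20) and IL1R1 by 1.77 (SE 0.16). They rose beside TLR4 (1.62, SE 0.10) and the oncostatin M receptor gene OSMR (1.32, SE 0.085).

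Other genes known to respond to IL-17 were called in part from parental to shCTL cells, and some were called with a hairpin. Of 18 tested in PC9, 6 rose and 3 fell from parental to shCTL cells (median 0.70, and 0.013 over all genes), against 23.8% and 21.8% of all genes. The mucin gene MUC5B rose by 6.71 (SE 0.46, adjusted p = 2.53e-05, from 16.9 to 1620.4), the calprotectin subunit gene S100A8 by 5.06 (SE 0.69, adjusted p = 0.000684, from 255 to 8504), the metalloreductase gene STEAP4 by 3.15 (SE 0.31, from 283 to 2515) and SAA2, a serum amyloid gene, by 2.57 (SE 0.74, adjusted p = 0.0218, from 90.7 to 537). The 3 that fell were MMP13, MMP9 and ICAM1. With shLCN2_1, S100A8 was 2105 and 14097 in the 2 libraries, on both sides of the shCTL values of 8450 and 8559, and neither S100A8 nor STEAP4 nor SAA2 was called with a hairpin. MUC5B fell with shLCN2_1 (-2.21, SE 0.46, adjusted p = 0.00572), though at -1.03 it was not called with the GC trend removed, and with shLCN2_2 it was at 0.41 (adjusted p = 0.573). Of the 18, IL6 and MMP13 were the 2 called with each hairpin and in 1 direction, and both were chosen after their values were seen. IL6, a cytokine gene, was 111 and 113 in parental cells and fell from 86.2 and 91.5 with shCTL to 29.4 and 40.7 with shLCN2_1 (-1.33, adjusted p = 0.00173) and to 20.9 and 22.5 with shLCN2_2 (-1.98, adjusted p = 0.00172). MMP13, a collagenase gene, was 1.84 and 2.03 with shCTL, under the floor, 15.4 and 15.7 with shLCN2_1, and 13.9 and 20.1 with shLCN2_2.

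In MDA231, 8 of 18 response genes rose and 7 fell from parental to shCTL cells, against 24.8% and 23.8% of all genes. The chemokine gene CCL2 rose by 5.05 (SE 0.14, adjusted p = 4.9e-06, from 27.5 to 935), the adhesion gene ICAM1 by 2.24 (SE 0.13), the cytokine gene CSF2 by 2.20 (SE 0.19) and the complement gene C3 by 1.91 (SE 0.14). ICAM1 and SAA2, which fell in MDA231, thus moved in opposite directions in the 2 lines, a difference that was not tested. With the hairpins 4 of the 18 were called, named here after their values were seen. MMP9 (3.09) rose and MMP3 (-1.84) and IL6 (-0.86) fell with shLCN2_1, while CCL2 (1.14, SE 0.14, adjusted p = 0.0302) and MMP3 (0.96) rose with shLCN2_2, that is 3 and 2 of 18 against 0.841% and 0.521% of all genes. Removing the GC trend gave 3 called higher and 8 lower with shLCN2_1, and 2 higher and 8 lower with shLCN2_2. Over all 14387 genes the counts were then 583 higher and 818 lower, and 374 higher and 709 lower. The plot of the lists shows all the genes tested.

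**Figure D4:**
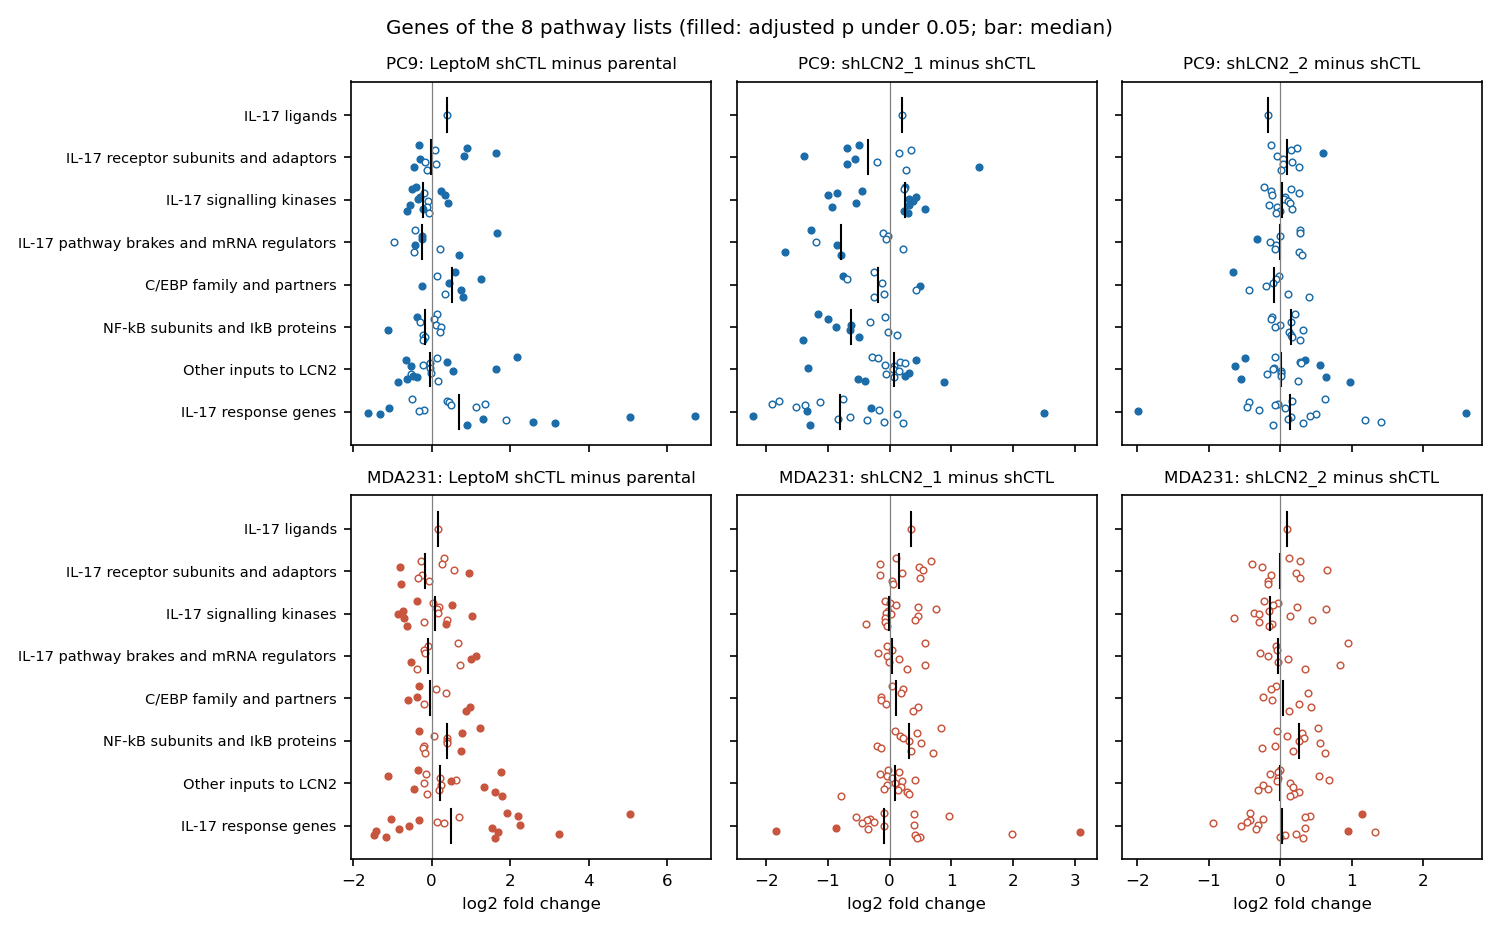
Log2 fold changes (x axes) of the genes of 8 lists (rows) in PC9 (top) and MDA231 (bottom) for 3 comparisons, filled where the adjusted p is under 0.05, with a bar at each list's median. Most filled symbols lie in the comparisons of shCTL with parental cells and in PC9 shLCN2_1, where 7 of 11 NF-kB genes lie to the left, and the response genes spread widest, from -1.63 to 6.71 in PC9 shCTL cells.

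Over the 8 PC9 libraries, the genes whose log2 levels ran most closely with LCN2 were SULT1A1 (Pearson r = 0.984), CALB2 (0.980), MTHFSD (0.979), FAM86A (0.977) and FAM203B (0.975), out of 13511 compared. CALB2, the calretinin gene, was 5872 and 5935 in parental cells, 7479.6 and 7658 with shCTL, 4209 and 4817 with shLCN2_1, and 5632 and 5856 with shLCN2_2. It thus shared with LCN2 the order of the groups, with a range far narrower than that of LCN2. NRBF2 (-0.995), AC125232.1 (-0.990) and AP001372.2 (-0.987) ran most closely opposite. In all, 225 genes had an r of at least 0.9, and the libraries share groups and the GC trend, so these values are a description. None of the 5 leading genes stayed among the first 5 with the GC trend removed. Among the inputs, CEBPB ran most closely with LCN2 (r = 0.916, Spearman rho 0.619), but with the trend removed its r was -0.344. The others were IL17RA at 0.697, TRAF3IP2 at 0.595, IL17RC at 0.471, CEBPD at 0.410 and NFKBIZ at 0.146. With the trend removed, these were 0.434, 0.636, -0.524, -0.524 and 0.456 in the same order.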

How the data were processed

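RNA came from cells in dishes and was sequenced as polyA-selected, stranded TruSeq libraries, per the labels' protocols. The authors deposited 1 table per line, whose values are a signal per gene, namely reads over the size factor of the library. The submitters' processing notes name HTSeq 0.5.3, DESeq2 1.22.1 and the build hg19, while the aligner, annotation and strand use are not given in the sources used here. Divided by what 1 read is worth, all values came within 0.001 of whole reads (100%). The PC9 table held 4 lines that name no gene (24.4 to 36.5% of a library's reads), which were left out. In PC9 parental replicate 2, reads aligned to more than 1 place came to 42.4% of gene reads, against 18.1 to 20.6% in the other libraries.

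Limma 3.58.1 (R 4.3.3) with a trended prior was fitted to log2(value + 1) over the 4 groups of a table, for genes with a mean of at least 10 (15650 in PC9, 14387 in MDA231). Of the members, 7 passed that minimum in PC9 and 6 in MDA231. CEBPA (PC9) and LCN2 (MDA231) were added in separate fits. P-values are two-sided, adjusted by Benjamini-Hochberg over all genes tested, and called under 0.05. The added 1 shrinks fold changes of low genes. The GC trend was removed per library by a loess fit (span 0.5) on the GC content of each gene's longest GENCODE transcript. Gene positions and summed exon lengths come from GENCODE (GRCh38) by gene ID. Differences between lines were tested from both fitted effects and their SEs. edgeR 4.0.16 and DESeq2 1.42.0 on the recovered read counts were alternatives. The limma fit was tested on simulated data for shCTL against parental cells. The share of false calls there lay above the threshold of 0.05 in both lines. The members, gene lists and tests were chosen with earlier results of these data known. List genes named are up to 4 per list and line, called in shCTL against parental cells or with both hairpins, where some group averaged 50 or more and libraries did not overlap, and genes that complete a small count were added after seeing the data. Genes most like LCN2 were ranked by Pearson correlation. List genes were not refitted without single libraries.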

Additional observations from a re-analysis of the deposited data

Results flagged for a closer look

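Effects of 8 gene and comparison pairs differed between PC9 and MDA231 by a test of the difference itself, given as PC9 minus MDA231 on the log2 scale. From parental to LeptoM shCTL cells these were IL17RC (1.17), IL17RA (-0.63) and CEBPD (0.89). The CEBPD difference was no longer called with a pseudocount of 5, without the minimum mean, with upper-quartile scaling or with the GC trend removed. With shLCN2_1 they were IL17RC (-1.35), CEBPB (-0.98) and IL17RA (-0.61), and between shLCN2_1 and shLCN2_2 they were IL17RC (-1.30) and CEBPB (-1.08). In the last 2 comparisons the PC9 shLCN2_1 libraries carry the trend with GC content, and with it removed the differences were 0.18, 0.90, -0.18, 0.0048 and 0.53 in the same order, of which only CEBPB with shLCN2_1 was called. The MDA231 parental libraries are the shallowest, and whether depth plays a part in the first 3 was not tested.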

How the results depend on the processing

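Without leaving a library out, 603 effects of single members under the alternatives kept their direction and their side of the threshold, 20 gained a call, 15 lost one and 58 reversed. Removing the GC trend changed most. The counts of members called became 2 for PC9 shLCN2_2, and 3 (LeptoM shCTL), 1 (shLCN2_2) and 1 (between the hairpins) in MDA231, and the lines differed in 5 effects in place of 8. Over all genes the calls were then 4396 of 15650 for PC9 shLCN2_2, and 8865, 1083 and 2627 of 14387 in these MDA231 comparisons. For differences between the lines they were 7762 (shCTL), 2555 (shLCN2_1), 2551 (shLCN2_2) and 4092 (between the hairpins) of 13392 genes. The 5 include TRAF3IP2 (-0.47) and CEBPD (1.63) between the hairpins, which were called only with the trend removed. With shLCN2_1 in PC9, 4 lower became 3 higher (CEBPB, CEBPD, IL17RC) and 2 lower (LCN2, TRAF3IP2), and between the hairpins 5 lower became the same 3 higher and 2 lower. It reversed, in PC9, CEBPB in shCTL against parental cells (-0.40), CEBPA (0.31), CEBPB (0.58), CEBPD (1.01) and IL17RC (0.40) with shLCN2_1, IL17RC with shLCN2_2 (-0.041), and CEBPB (0.94), CEBPD (1.5), IL17RA (0.018) and IL17RC (0.44) between the hairpins. In MDA231 it reversed CEBPB (-0.69), CEBPD (-0.58) and IL17RA (-0.076) in shCTL against parental cells, CEBPB (-0.32), CEBPD (-0.48) and IL17RA (-0.036) with shLCN2_1, CEBPD (-0.36), IL17RA (-0.039) and IL17RC (-0.21) with shLCN2_2, and IL17RA between the hairpins (0.0028). Differences between the lines reversed for NFKBIZ (-0.035), CEBPB (0.90), CEBPD (1.5) and IL17RC (0.18) with shLCN2_1, IL17RC with shLCN2_2 (0.17), and CEBPB (0.53), CEBPD (1.63), IL17RA (0.015) and IL17RC (0.0048) between the hairpins.

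Fitting only the groups compared called 4 members for PC9 shLCN2_2 and 0 for MDA231 shCTL, as did edgeR (0), DESeq2 (0) and thinned reads (0) for the latter. NFKBIZ with shLCN2_1 in PC9 turned to 0.076 with upper-quartile scaling, 0.066 in edgeR and 0.012 in DESeq2. Upper-quartile scaling also reversed the line differences of CEBPB in shCTL (-0.030), TRAF3IP2 with shLCN2_1 (0.037) and NFKBIZ between the hairpins (0.10). Thinned reads reversed CEBPD with shLCN2_2 in PC9 (0.00058), and CEBPD (0.0041) and TRAF3IP2 (0.023) between the hairpins in MDA231. The cause was not tested.

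Leaving out 1 library in turn gave 4 to 7 members called with shLCN2_1 and 0 to 1 with shLCN2_2 in PC9, and 0 to 2 in MDA231 shCTL and 0 to 1 with MDA231 shLCN2_2. The 7 with shLCN2_1 came without shLCN2_1 replicate 2. Directions changed in PC9 for CEBPA in shCTL (-0.12 to 3.04), NFKBIZ with shLCN2_1 (-0.31 to 0.27) and between the hairpins (-0.43 to 0.15), and CEBPB (-0.075 to 0.040) and CEBPD (-0.32 to 0.20) with shLCN2_2. In MDA231 they changed for CEBPB (-0.11 to 0.35) and IL17RC (-0.68 to 0.16) in shCTL, CEBPD (-0.051 to 0.42) and IL17RA (-0.049 to 0.26) with shLCN2_1, IL17RA with shLCN2_2 (-0.036 to 0.28), and CEBPD (-0.44 to 0.024), IL17RA (-0.14 to 0.11) and TRAF3IP2 (-0.080 to 0.032) between the hairpins.

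The replicate numbers did not pair the PC9 libraries, where the correlation of replicate differences between groups was -0.010 to 0.032. In MDA231 it was 0.364 for shCTL and parental cells and 0.445 for shLCN2_2 and shCTL. It was -0.408 for shLCN2_1 and shCTL and -0.589 between the hairpins. Libraries of the same number in MDA231 thus deviated together or in opposite directions, depending on the groups. With the replicate number as a block the members called were 4, 4, 1 and 5 in PC9 and 1, 0, 0 and 0 in MDA231, as without it. Over all genes it lowered the calls from 121 to 47, from 75 to 1 and from 387 to 178 in the MDA231 hairpin comparisons. The block with the GC trend removed gave 3 and 1 where the trend alone did (MDA231 shCTL and between the hairpins) and the same reversals. A crossed pairing, chosen after seeing the data, called 1 member (1892 genes) with shLCN2_1 and 0 (1963 genes) between the hairpins in MDA231.

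Counts over all genes moved by over 1.5 times as follows. In PC9, shLCN2_1 went from 6910 to 3982 with the GC trend removed (3664 with the block as well), the difference between hairpins from 8529 to 5509, and shLCN2_2 from 3053 to 8045 with only the groups compared, and leaving out a library gave 4161 to 8889, 3866 to 8173 and 361 to 5469 in the 3 comparisons other than that between the hairpins. In MDA231, the GC trend gave 1401, 1083 and 2627 with shLCN2_1, shLCN2_2 and between the hairpins, with the block as well 1209, 928 and 2417, DESeq2 488, 350 and 819, edgeR 297, 188 and 687, thinned reads 74, 48 and 237, and only the groups compared 384 and 204 with the hairpins and 4382 in place of 7001 in shCTL, while leaving out a library gave 3486 to 9081 in shCTL and 0 to 674, 0 to 366 and 8 to 1225 in the others. The MDA231 values of LCN2 rest on 4 to 45 reads per group, which limits their precision.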
